A study of Homo sapiens with 24 samples.

Results

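Plasminogen activators, their receptor and the serpins that inhibit them were examined after knockdown of IGF2BP1, an oncofetal RNA-binding protein, abundant in embryonic tissue, scarce in most adult tissue and found again in tumours. The genes were chosen by symbol: PLAU, PLAUR, PLAT, SERPINE2 and SERPINB2, 5 of the 58174 genes listed for each cell line. SERPINB2 was included because its level fell strongly in ES2, so its values in that line are given as a description without a test. The material was total RNA, depleted of ribosomal RNA, of 4 human cancer lines, with 3 biological replicates of each of 8 groups, 24 libraries in all. In each line, cells received a control siRNA (siC) or a pool of siRNAs against IGF2BP1 (siI1), with no other treatment. A549 derives from lung cancer, ES2 from ovarian cancer and MV3 from melanoma, and these were harvested 72 h after transfection. PANC1 derives from pancreatic cancer and was harvested after 96 h, so that line and time cannot be told apart there.

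Plasminogen activators are serine proteases that cut plasminogen, a circulating zymogen, into plasmin, which dissolves fibrin and degrades extracellular matrix. PLAU encodes urokinase (uPA), which acts at the cell surface while bound to its receptor uPAR, the product of PLAUR. PLAT encodes tissue-type activator (tPA), which cuts plasminogen on the surface of fibrin. Serpins stop these proteases by forming a covalent complex with them: SERPINB2 (PAI-2) inhibits urokinase, and SERPINE2 (protease nexin-1) inhibits thrombin, urokinase, tPA and plasmin. The system is known for its part in invasion and matrix turnover in tumours.

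Levels are FPKM, fragments per unit of listed gene length scaled by the authors to the depth of each library within a line. The listed length exceeds that of the annotated canonical transcript unevenly, 2950 against 2343 bases for PLAU and 4457 against 1368 for PLAUR. Levels and ratios of different genes within a line therefore depend on the length used. Changes are differences of log2(FPKM + 0.5), siI1 minus siC, on which changes at low levels come out smaller than they are. They were tested with limma over every gene that averaged 0.5 FPKM or more in the line, and a gene was called at an adjusted p under 0.05 (Benjamini-Hochberg over all genes tested). IGF2BP1 itself fell in each line, from 39.7 ± 0.0742 to 15.6 ± 0.674 FPKM (SD, n = 3 each) in A549. It fell from 11.1 ± 0.150 to 2.78 ± 0.0800 FPKM in PANC1. In ES2 it fell from 13.1 ± 0.915 to 4.14 ± 0.102 FPKM (log2 change -1.55) and in MV3 from 9.26 ± 0.325 to 2.91 ± 0.126 FPKM (-1.52). The knockdown was weakest in A549, where 39.4% of the siC mean remained, against 31.7% in ES2, 31.4% in MV3 and 24.9% in PANC1. Libraries held 3105215 to 20082702 reads assigned to genes, fewest in A549 and most in MV3, so a given FPKM rests on fewer reads in A549. Keratins KRT7, KRT8 and KRT18 were high in A549 (siC means 162 to 512 FPKM), whereas the lung markers NKX2-1 and SFTPB were listed at 0 in all 6 of its libraries. In ES2, KRT7 averaged 103 FPKM in siC and the ovarian markers PAX8, WT1 and MUC16 did not exceed 0.262 FPKM. The melanoma markers SOX10, TYR, DCT and S100B were listed at 0 in every MV3 library and MITF did not exceed 0.337 FPKM. The MV3 libraries thus lack these melanocyte transcripts, in a line that the study lists as amelanotic melanoma. In PANC1, KRT8, KRT18 and KRT19 averaged 201 to 717 FPKM in siC, with MUC1 at most 1.12 FPKM. The 7 markers listed for A549, most of whose sum was KRT7, KRT8 and KRT18, summed to 1029 to 1138 FPKM in the siC libraries of A549 and to 448 to 476 FPKM in siI1, and the 6 markers listed for PANC1, likewise mostly keratins, to 1340 to 1762 and 2059 to 2213 FPKM; the part of these shifts in the changes below was not tested. Markers of other cells (PTPRC, CD14, PECAM1 and VWF) summed to at most 5.39 FPKM in any library.

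SERPINB2 and PLAUR were the members whose siI1 libraries lay below all siC libraries in both ES2 and MV3, and their sequences are shown for that reason. For SERPINB2 the ES2 part of this is the fall that chose the gene, and PLAUR rose in A549 (log2 change 0.60). Nothing about the changes is therefore read from what the sequences share. SERPINB2 (ENSG00000197632) lies on chromosome 18, at chr18:63871692-63903888 on the plus strand (hg38), and PLAUR (ENSG00000011422) on chromosome 19, at chr19:43646095-43670547 on the minus strand. PLAU (ENSG00000122861) lies at chr10:73909177-73917496 and SERPINE2 (ENSG00000135919) at chr2:223975045-224039318. The following are the 250 bases before the RefSeq start of SERPINB2 (GRCh38.p14, chr18:63887455-63887704, plus strand) and of PLAUR (chr19:43670170-43670419, minus strand), 5′ to 3′, with matches to the AP-1 site TGANTCA and to the TATA box TATAAA in capitals:
SERPINB2 promoter: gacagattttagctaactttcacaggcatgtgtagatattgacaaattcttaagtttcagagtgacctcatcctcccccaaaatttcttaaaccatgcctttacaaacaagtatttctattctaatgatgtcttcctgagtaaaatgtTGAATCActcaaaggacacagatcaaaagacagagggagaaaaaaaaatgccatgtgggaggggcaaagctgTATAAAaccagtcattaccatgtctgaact
PLAUR promoter: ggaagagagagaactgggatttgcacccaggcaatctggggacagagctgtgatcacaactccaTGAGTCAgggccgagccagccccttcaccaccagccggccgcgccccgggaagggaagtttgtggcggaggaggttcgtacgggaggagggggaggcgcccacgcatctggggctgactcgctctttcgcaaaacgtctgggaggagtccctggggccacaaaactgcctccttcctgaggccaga

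Each of these promoters held 1 match to TGANTCA, the site of AP-1, a dimer of FOS and JUN family proteins. In SERPINB2 the match lay at bases -102 to -96 from the start and in PLAUR at bases -186 to -180. SERPINB2 also held the TATA box at bases -30 to -25. Of 35116 promoters of 300 bases (250 before and 50 after the start) in the RefSeq table, 7.71% held TGANTCA and 11.5% held TATAAA on either strand. GGGCGG, the GC box, was in 45.0% of them and in neither of the promoters shown, and the CArG box was in 1.29% and likewise in neither. The RefSeq windows of PLAU and SERPINE2 held neither TGANTCA nor TATAAA, and that of SERPINE2 held GGGCGG at bases -50 to -45. Their RefSeq starts, 73910610 and 224031478, are not those of their canonical transcripts, 73911132 and 224039286. For SERPINB2 and PLAUR the RefSeq and canonical starts are the same. The windows are therefore not alike between the genes, and the canonical promoters of PLAU and SERPINE2 were not searched. The window of PLAT was not looked up. The matches are letters found in these windows and are not evidence of binding.

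In the 3'UTR, PLAUR and SERPINB2 each held 1 copy of the AU-rich nonamer TTATTTATT, a sequence through which many short-lived mRNAs are marked for decay. The sites are shown with their surroundings, 29 bases on the strand of the gene, with the nonamer in capitals; that of PLAUR lies at chr19:43648601-43648629 and that of SERPINB2 at chr18:63903572-63903600 (hg38):
PLAUR site: aatattcataTTATTTATTttatacttac
SERPINB2 site: ttttactttgTTATTTATTattttatata

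The nonamer was absent from the annotated 3'UTRs of PLAU, PLAT and SERPINE2, and present in 8.54% of 19139 annotated 3'UTRs. The pentamer ATTTA, the core of such elements, occurred 4 times in the 583 bases of the SERPINB2 3'UTR and 1 time in the 311 bases of PLAUR. It occurred 4 times in PLAT (1275 bases), 2 times in PLAU (929 bases) and 2 times in SERPINE2 (822 bases). Per kilobase this was 6.86 in SERPINB2 and 2.15 to 3.22 in the other members, against a median of 1.54 over all 3'UTRs. Whether these elements take part in the changes below was not tested.

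PLAU was well expressed in all lines, whereas each of the other members was near 0 in at least 1 of them. In the siC libraries PLAU averaged 85.9 ± 18.4 FPKM in ES2, 66.1 ± 2.04 in MV3, 43.8 ± 7.05 in PANC1 and 37.0 ± 4.13 in A549 (SD, n = 3 each). Since each line was normalized on its own, levels between lines are set side by side without a test. The ranges of the 3 libraries overlapped between ES2 and MV3 and between PANC1 and A549, so neither of these neighbours in the order differed beyond its spread. About 31.0% of the exonic bases of PLAU are shared with C10orf55 on the opposite strand, a gene that did not exceed 3.15 FPKM in any library. Of the 2741 exonic bases of SERPINB2, 547 are shared with a gene model on the same strand, ENSG00000289724, in the annotation used here.

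In MV3, PLAU fell to 43.9% of its control level. The siC libraries held 63.8, 67.8 and 66.7 FPKM and the siI1 libraries 29.0, 28.7 and 29.4 FPKM. All 3 siI1 libraries lay far below the siC libraries, with almost no spread among them. Mean PLAU was thus 2.28-fold lower, a change of -1.17 ± 0.03 on the log2 scale (SE, adjusted p = 4.47e-05, limma). In a bulk library, fewer expressing cells and less RNA per cell cannot be told apart.

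Elsewhere PLAU did not pass the test. In A549, PLAU was 39.1, 32.3 and 39.7 FPKM in siC and 35.9, 37.9 and 40.3 FPKM in siI1, and the groups overlapped. The 95% interval of its log2 change ran from -0.18 to 0.27. ES2 gave 94.1, 98.9 and 64.9 FPKM in siC and 93.0, 76.5 and 79.7 FPKM in siI1, with an interval from -0.44 to 0.38. The third siC library of ES2 lay well below the other two and all siI1 libraries above it, so the spread among controls was wide. In PANC1 the siC libraries held 40.7, 51.9 and 38.8 FPKM and the siI1 libraries 38.1, 38.5 and 43.0 FPKM, again overlapping, with an interval from -0.41 to 0.16. The change of PLAU differed between the 4 lines (limma, moderated F over the interaction of line and knockdown, adjusted p = 7.43e-05). That test called 45.0% of the 12816 genes measured in all lines.

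PLAT (ENSG00000104368, chr8:42174718-42207709, hg38) was mainly a transcript of ES2, where it ranked 332 of 19799 protein-coding genes in siC. It averaged 101 ± 3.43 FPKM there, 3.98 ± 0.555 in MV3 and 1.39 ± 0.0820 in A549, and no neighbours in this order overlapped. In PANC1 it stayed at or below 0.0630 FPKM in all libraries but 1. The ES2 siC libraries held 96.9, 102 and 104 FPKM and the siI1 libraries 69.5, 73.3 and 73.3 FPKM. Each siI1 library lay below each siC library, and mean PLAT was 1.40-fold lower (log2 change -0.48 ± 0.04, SE, adjusted p = 0.00104, limma).

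Outside ES2, PLAT did not pass the test. The MV3 libraries held 4.60, 3.52 and 3.83 FPKM in siC and 3.88, 3.60 and 3.97 FPKM in siI1, with a 95% interval of the log2 change from -0.28 to 0.19. In A549 the values were 1.33, 1.48 and 1.34 FPKM in siC and 1.93, 1.93 and 1.45 FPKM in siI1. These A549 values rest on a mean of 41.2 reads per library, and the interval from -0.17 to 0.69 is wide. In a fit of A549, ES2 and MV3 alone, added after the levels were seen because PLAT is too low in PANC1, the change of PLAT differed between the lines (adjusted p = 0.00185, limma, moderated F). That fit called 27.1% of 13954 genes.

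**Figure D1:**
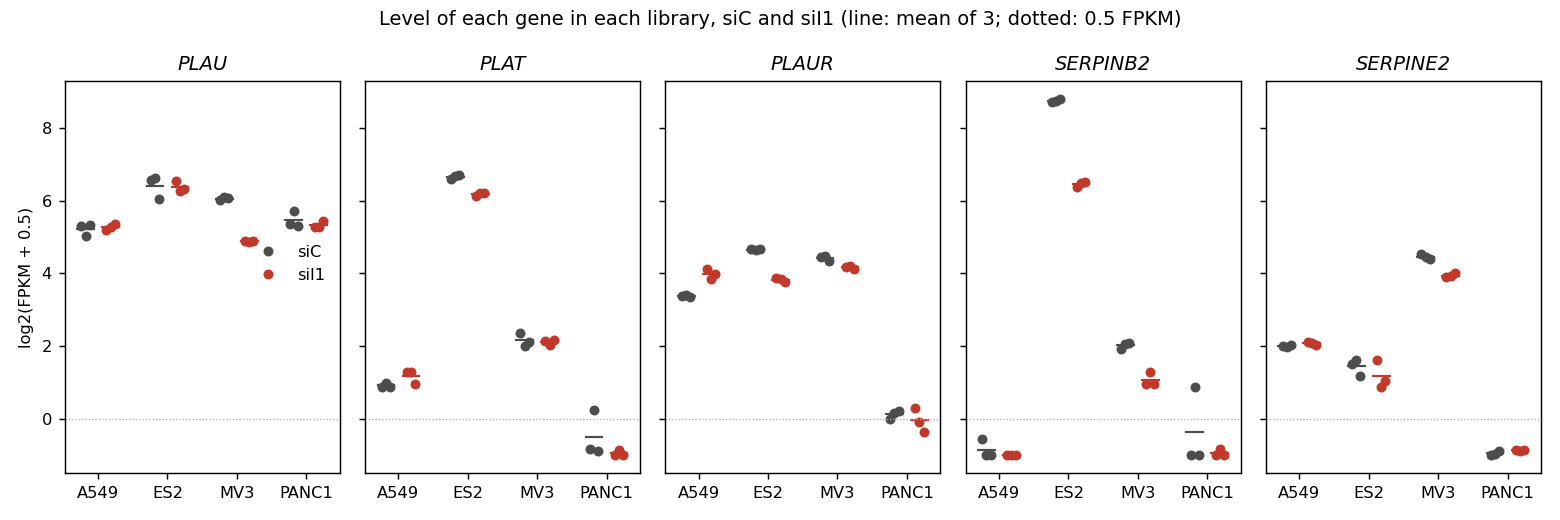
Level of the 5 genes in each of the 24 libraries, as log2(FPKM + 0.5) on the y axis, by cell line on the x axis; grey points are siC and red points siI1, short bars are means of 3 libraries and the dotted line marks 0.5 FPKM. PLAU is high in all 4 lines, PLAT and SERPINB2 are highest in ES2 and SERPINE2 in MV3, and 1 siC library of PANC1 lies apart for PLAT and SERPINB2.

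PLAUR, the urokinase receptor, changed in opposite directions in different lines: it rose in A549 and fell in ES2 and MV3. The siC means were 24.7 ± 0.196 FPKM in ES2, 21.0 ± 1.11 in MV3, 9.91 ± 0.214 in A549 and 0.591 ± 0.0857 in PANC1 (SD, n = 3 each), with no overlap between neighbours. In the siC libraries of PANC1, PLAU was thus at 43.8 FPKM and PLAUR at 0.591 FPKM, a gap whose size depends on the listed gene lengths. Over all siC and siI1 libraries of PANC1 the mean reads per library were 897.5 for PLAU and 17.7 for PLAUR.

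In ES2, PLAUR was 24.8, 24.5 and 24.7 FPKM in siC and 14.0, 13.7 and 13.0 FPKM in siI1. Replicates were tight and the groups lay far apart, with a 1.82-fold lower mean after knockdown (log2 change -0.84 ± 0.05, SE, adjusted p = 0.000220, limma). MV3 gave 21.4, 21.9 and 19.8 FPKM in siC and 17.6, 17.8 and 16.8 FPKM in siI1. The groups did not overlap there either, but the fall was smaller, 1.21-fold (log2 change -0.27 ± 0.05, adjusted p = 0.00687).

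In A549 the direction was the opposite. PLAUR was 9.96, 10.1 and 9.67 FPKM in siC and 16.7, 14.0 and 15.2 FPKM in siI1. All siI1 libraries lay above all siC libraries, and the mean was 1.54-fold higher (log2 change 0.60 ± 0.08, SE, adjusted p = 0.00682, limma). The PANC1 libraries held 0.499, 0.606 and 0.668 FPKM in siC and 0.722, 0.448 and 0.283 FPKM in siI1, overlapping, and the 95% interval from -0.83 to 0.49 leaves room for either direction at this depth. Between the 4 lines the change of PLAUR differed (adjusted p = 6.27e-06, limma, moderated F).

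SERPINB2 (PAI-2), the intracellular and secreted urokinase inhibitor, was one of the most abundant mRNAs of ES2. It ranked 54 of 19799 protein-coding genes in the siC libraries of that line and 352 after knockdown. The siC libraries held 419, 425 and 445 FPKM and the siI1 libraries 83.0, 88.2 and 89.9 FPKM. The mean went from 430 ± 13.5 to 87.0 ± 3.57 FPKM (SD, n = 3 each), 4.94-fold lower and -2.30 on the log2 scale. This is the value that chose the gene, and no test is attached to it. With control siRNA, the ratio of SERPINB2 to PLAU, in FPKM of the same libraries, was 5.20 ± 1.43, and after knockdown 1.06 ± 0.143 (SD over the 3 libraries). The ratio to PLAT went from 4.27 ± 0.0727 to 1.21 ± 0.0163. The sizes of both ratios depend on the listed gene lengths.

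MV3 was a line the choice of SERPINB2 did not use. Its siC libraries held 3.29, 3.69 and 3.78 FPKM and its siI1 libraries 1.45, 1.92 and 1.43 FPKM. The groups did not overlap, and the mean was 2.24-fold lower (log2 change -0.97 ± 0.11, SE, adjusted p = 0.00130, limma) on 77 to 164 reads per library. SERPINB2 was listed at 0 in 5 of 6 A549 libraries, with 2 reads in the other, where a count of 0 allows a level of up to 0.240 to 0.339 FPKM (3 reads, counting error only). Because it was under the filter in A549 and PANC1, a difference between lines that leaves out ES2 could not be tested.

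SERPINE2 (protease nexin-1) was highest in MV3 and changed there. The siC means were 21.4 ± 1.15 FPKM in MV3, 3.51 ± 0.114 in A549, 2.23 ± 0.436 in ES2 and 0.0178 ± 0.0205 in PANC1 (SD, n = 3 each), and no neighbours overlapped. In MV3 the siC libraries held 22.7, 21.2 and 20.4 FPKM and the siI1 libraries 14.4, 14.6 and 15.6 FPKM. Knockdown libraries were all below control libraries, with a 1.44-fold lower mean (log2 change -0.52 ± 0.05, SE, adjusted p = 0.000769, limma).

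In the remaining lines SERPINE2 did not pass the test. A549 gave 3.53, 3.39 and 3.62 FPKM in siC and 3.85, 3.73 and 3.59 FPKM in siI1, with a 95% interval of the log2 change from -0.16 to 0.31. In ES2 the values were 2.36, 2.59 and 1.75 FPKM in siC and 2.58, 1.34 and 1.56 FPKM in siI1. Both ES2 groups were scattered and overlapped, and the interval from -0.82 to 0.30 includes the change seen in MV3. The difference between A549, ES2 and MV3 did not pass the test (adjusted p = 0.117, limma, moderated F), but did under Cochran's Q over the separate fits (adjusted p = 0.00141); adjusted p over 8 alternatives ran from 0.00141 to 0.299.

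**Figure D2:**
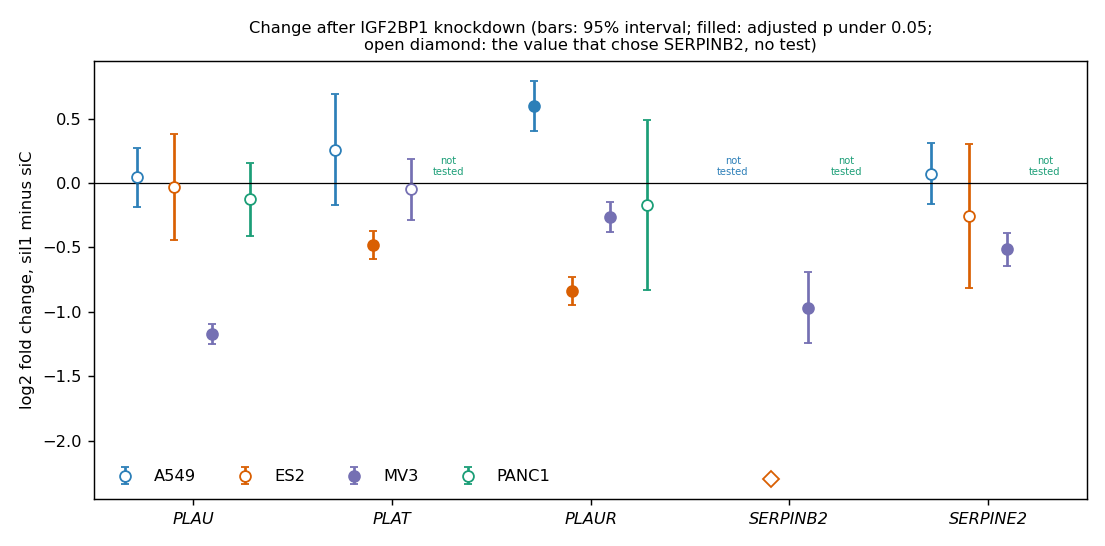
Log2 fold change of each gene after IGF2BP1 knockdown (y axis, siI1 minus siC, from log2(FPKM + 0.5)) by gene on the x axis and by line in colour, with 95% intervals from limma; filled points have an adjusted p under 0.05 and the open diamond is the value that chose SERPINB2. PLAUR lies at 0.60 in A549 and at -0.84 in ES2, and 4 of the filled points belong to MV3.

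Counted by line, MV3 had the most members called and PANC1 none. In MV3, 4 of 5 tested members were lower (PLAU, PLAUR, SERPINB2 and SERPINE2) and none higher, against 19.5% of all 16380 tested genes called lower and 16.3% higher. ES2 had 2 of its 4 other members lower (PLAUR and PLAT) and none higher, against 13.0% lower and 10.5% higher of 16920 genes. In A549, 1 of 4 tested members was higher (PLAUR) and none lower, where 5.93% of 18411 genes were higher and 7.83% lower. Neither of the 2 members tested in PANC1 was called, where 13.4% of 15846 genes were lower and 11.3% higher (limma, adjusted p = 0.489 for PLAU and 0.694 for PLAUR). At an unadjusted p under 0.05 the members called would be equally many in each line, 4 in MV3, 2 in ES2, 1 in A549 and 0 in PANC1, and limma voom on the reads behind the values gave the same counts. The median log2 change of the members was -0.52 in MV3 (0.01 over all tested genes), -0.37 in ES2 without SERPINB2 (-0.02), 0.17 in A549 (-0.01) and -0.15 in PANC1 (-0.04). Rescaling each library to the same FPKM sum shifted the median change of all genes in PANC1 from -0.04 to -0.68, by -0.65, and there PLAU read -0.87 and was called (adjusted p = 0.00236); calls in PANC1 went from 2131 lower and 1796 higher to 8870 lower and 96 higher. In ES2 the same rescaling changed the split of all calls from 2201 lower and 1772 higher to 1419 lower and 1780 higher and ended no call of a member.

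The balance of urokinase and its receptor differed in its change from line to line, which was not tested. In MV3 the ratio of PLAU to PLAUR, in FPKM, was 3.15 ± 0.200 with control siRNA and 1.67 ± 0.0750 with the pool (SD, n = 3 each). A549 libraries went from 3.74 ± 0.481 to 2.50 ± 0.312. ES2 libraries went from 3.49 ± 0.755 to 6.11 ± 0.528. In each of these lines the siC and siI1 ratios did not overlap. The size of the ratios depends on the listed gene lengths, so they do not show which transcript was more abundant.

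One PANC1 control library stood apart for 2 members. SERPINB2 was at 1.33 FPKM (31 reads) in siC replicate 2 and at 0 in both other siC libraries, and PLAT was at 0.692 FPKM (39 reads) there and at 0.0630 and 0.0360 FPKM in the others. In the siI1 libraries SERPINB2 did not exceed 0.0605 FPKM and PLAT 0.0502 FPKM. These 2 values amount to 0.309% and 0.688% of the ES2 siC means. The other 15 protein-coding genes with at least 50 FPKM in ES2 siC and a median of at most 0.1 FPKM in PANC1 were, summed, at 0.272% of their ES2 level in that library and at 0.00440% to 0.0434% in the other 5. Chosen the same way, 10 genes high in MV3 were at 0.141% of their MV3 level in siC replicate 2 and at 0.000808% to 0.0283% in the other 5. The 22 genes high in A549 were at 0.0651% in siC replicate 2 and at 0.0528% in siC replicate 3. Genes shared between these lists were not removed. What this library holds was not tested. Without it the siC means in PANC1 were 0 FPKM for SERPINB2 and 0.0495 FPKM for PLAT.

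**Figure D3:**
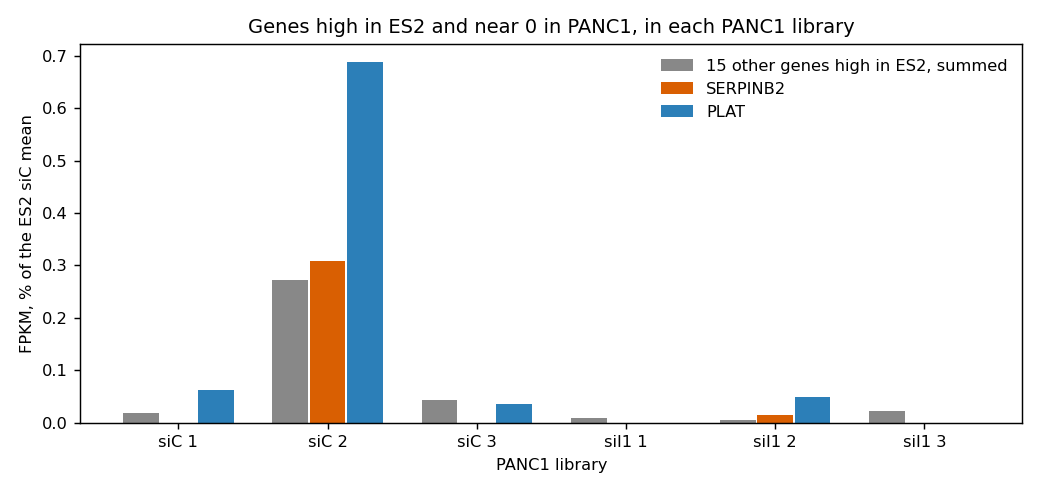
Level of SERPINB2, PLAT and the sum of 15 other genes in each PANC1 library (x axis), as a percentage of their mean in the ES2 siC libraries (y axis, linear from 0). Bars stand high in siC replicate 2 only, at 0.272% for the 15 genes, 0.309% for SERPINB2 and 0.688% for PLAT.

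The genes that surround the activators in the pathway were taken as 6 lists, 45 genes in all. They are plasminogen and its receptors, other inhibitors, receptors that clear protease-serpin complexes or uPAR with their chaperone, and proteases that activate the zymogens. The other lists are partners of uPAR in the matrix, and the tissue factor and thrombin side. In ES2, 16 of 27 tested partner genes were higher and 1 lower, against 10.5% higher and 13.0% lower of all genes. In PANC1 3 of 26 were higher and 7 lower, against 11.3% and 13.4%, so the share called higher was near that of all genes. A549 had 10 of 31 higher and 2 lower, against 5.93% and 7.83%, and MV3 had 11 of 30 higher and 4 lower, against 16.3% and 19.5%. Their median log2 change was 0.29 in ES2, 0.18 in A549, 0.07 in MV3 and -0.0048 in PANC1, beside the medians of all genes given above. In PANC1 the counts depend on single libraries: 4 were lower without siI1 replicate 1 or siI1 replicate 2, and 1 was higher without siC replicate 1, siC replicate 3, siI1 replicate 1 or siI1 replicate 2. Without siC replicate 2, which stands apart, 5 were lower and 4 higher. After rescaling to the same FPKM sum, 20 partner genes were lower and 0 higher in PANC1. The single lower gene of ES2 was LRP8, and without siC replicate 2 of ES2 there were 2.

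Of the partners of uPAR at the cell surface and in the matrix, 6 of 6 tested were called higher in ES2, against 10.5% of all genes. In A549 4 of 7 were higher (5.93% of all genes). In MV3 2 of 6 were higher and 1 lower, against 16.3% and 19.5% of all genes. In PANC1 1 of 6 was higher and 2 lower, against 11.3% and 13.4%. The ES2 call of ITGA3 (0.19, adjusted p = 0.0418, limma) was lost without any 1 library other than siI1 replicate 2, with adjusted p up to 0.121. ITGB1, the integrin β1 chain, went from 84.5 ± 7.23 to 240 ± 8.28 FPKM in ES2 (log2 change 1.51, adjusted p = 0.000116, limma) and from 331 ± 18.5 to 580 ± 25.3 FPKM in A549 (0.81, adjusted p = 0.00127). ITGAV, the αv chain of vitronectin receptors, rose from 7.56 ± 0.195 to 20.7 ± 0.862 FPKM in ES2 (1.40, adjusted p = 8.85e-05). In PANC1, ITGA3, an α chain of laminin receptors, fell from 56.4 ± 1.42 to 30.2 ± 1.73 FPKM (-0.89, adjusted p = 0.000828), and ITGA5, the fibronectin receptor chain, rose by 0.45 (adjusted p = 0.00436), or read -0.28 when each library was rescaled to the same FPKM sum. In MV3, ITGB1 (0.43) and ITGAV (0.26) were also called higher and ITGA3 (-0.23) lower, the call of ITGAV being lost after that rescaling, and ITGA5 was also called higher in A549 (0.34) and ES2 (0.43), the A549 call being lost without any 1 library other than siC replicate 3. The changes of ITGB1, ITGAV, ITGA3 and ITGA5 each differed between the 4 lines, with adjusted p from 1.07e-09 to 0.000232 (limma, moderated F).

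The list of clearance receptors holds those of complexes of activators and serpins or of uPAR, and the chaperone LRPAP1. In ES2, 3 of 6 tested were called higher (LRP1, LRPAP1 and MRC2) and 1 lower, against 10.5% higher and 13.0% lower of all genes. In MV3, 3 of 7 were higher (LRP1, LRP1B and MRC2) and 1 lower, against 16.3% and 19.5%. A549 had 1 of 7 higher (VLDLR) and none lower, against 5.93% and 7.83%. PANC1 had 1 of 5 higher (LRPAP1) and 2 lower, against 11.3% and 13.4%. The lower gene in ES2 and in MV3 was LRP8 (-0.35, adjusted p = 0.00972, and -0.43, adjusted p = 0.00190), and those in PANC1 were IGF2R and MRC2. LRP1, the endocytic receptor that takes up such complexes, went from 2.19 ± 0.0433 to 5.62 ± 0.613 FPKM in ES2 (1.18, adjusted p = 0.000691) and from 11.4 ± 0.433 to 20.2 ± 0.743 FPKM in MV3 (0.80, adjusted p = 0.000152, limma in both). In MV3 its relative LRP1B rose by 1.06 (adjusted p = 0.000627). VLDLR, another receptor of the family, rose from 5.69 ± 0.624 to 11.4 ± 0.134 FPKM in A549 (0.94, adjusted p = 0.00264). MRC2, a collagen receptor that associates with uPAR, fell in PANC1 by 0.47 (adjusted p = 0.00344) and rose in ES2 by 1.03 (adjusted p = 0.00340) and in MV3 by 0.20 (adjusted p = 0.0205, limma in each). The MV3 call was lost without siI1 replicate 2 or siI1 replicate 3 (adjusted p up to 0.0699).

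On the tissue factor side, F3 (tissue factor) rose in ES2 from 2.04 ± 0.535 to 4.65 ± 0.584 FPKM (1.03, adjusted p = 0.00795, limma), on 34 to 126 reads per library. THBD, encoding thrombomodulin, fell in A549 by 0.73 (adjusted p = 0.00419) and in MV3 by 0.47 (adjusted p = 0.00218). TFPI, the inhibitor of the tissue factor pathway, fell in PANC1 by 0.72 (adjusted p = 0.00183) and rose in the other three lines, by 0.79 in ES2 (adjusted p = 0.000276), by 0.64 in A549 (adjusted p = 0.00479) and by 0.26 in MV3 (adjusted p = 0.0261, limma in each). The MV3 call was lost without any 1 of 5 libraries (all but siC replicate 3), with adjusted p up to 0.0833, and without the filter or after rescaling to the same FPKM sum. Among proteases and other inhibitors, CTSL, a lysosomal cathepsin, rose in A549 by 0.69 (adjusted p = 0.000781, limma). SERPINI1, a serpin that inhibits tPA, rose in MV3 from 0.968 ± 0.121 to 1.72 ± 0.276 FPKM (0.59, adjusted p = 0.0147, limma), on 33 to 96 reads per library.

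**Figure D4:**
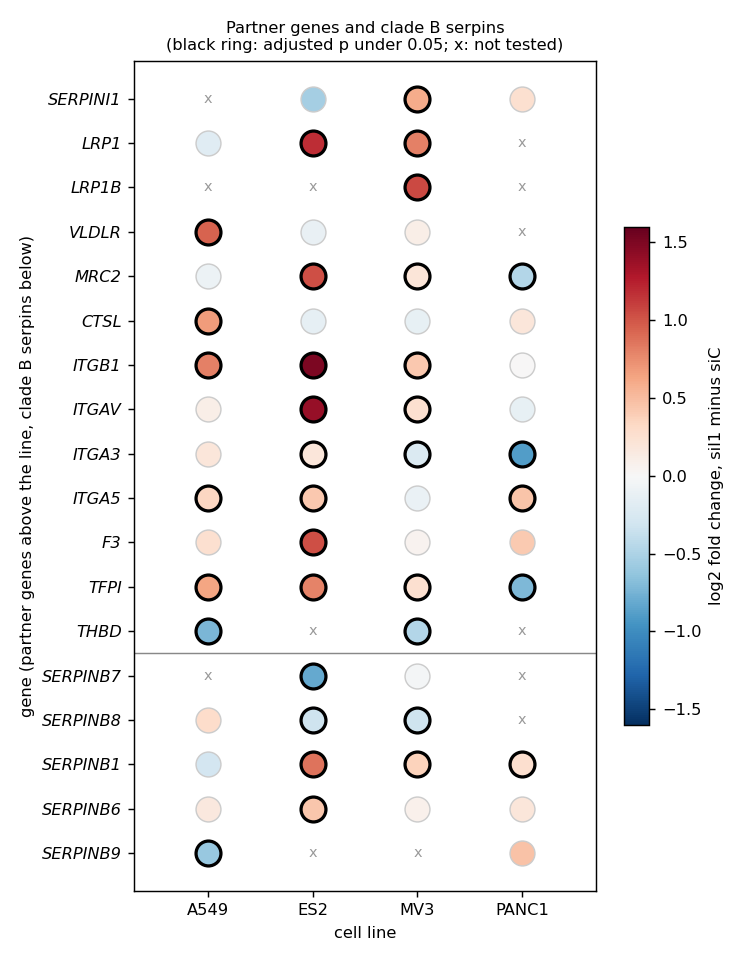
Log2 fold change (colour, siI1 minus siC) of the 13 partner genes named here and of 5 clade B serpins (y axis) in each line (x axis); black rings mark an adjusted p under 0.05 and x marks genes under 0.5 FPKM. ITGB1 reads 1.51 in ES2 and ITGA3 -0.89 in PANC1, and SERPINB7 and SERPINB8 are lower in ES2 where SERPINB1 and SERPINB6 are higher.

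SERPINB2 belongs to clade B, the intracellular serpins, whose genes lie in clusters on chromosomes 18 and 6. Of 9 other clade B genes of its own cluster, only SERPINB7 and SERPINB8 reached 0.5 FPKM in ES2 or MV3. SERPINB7 fell in ES2 from 54.5 ± 4.84 to 30.6 ± 1.70 FPKM (log2 change -0.82, adjusted p = 0.00117, limma) and in MV3 measured 26.2 ± 1.36 and 25.7 ± 0.850 FPKM (adjusted p = 0.685). SERPINB8 was called lower in ES2 (-0.33, adjusted p = 0.0400) and in MV3 (-0.33, adjusted p = 0.0437), but lost the call in both lines when any 1 library was left out, with adjusted p up to 0.109 in ES2 and 0.106 in MV3. The call was also lost in both lines without the filter on low levels and after rescaling to the same FPKM sum, and over 14 alternatives the adjusted p ran from 0.00801 to 0.167 in ES2 and from 0.00238 to 0.106 in MV3. In A549 SERPINB8 changed by 0.29 (adjusted p = 0.485) on 26.0 reads per library, and no gene of the cluster was tested in PANC1.

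Of the 3 genes of the cluster on chromosome 6, 2 were tested in ES2 and both were called higher, against 10.5% of all genes. SERPINB1, an inhibitor of neutrophil proteases, rose there from 14.1 ± 0.451 to 26.2 ± 1.55 FPKM (0.87, adjusted p = 0.000361) and SERPINB6 from 13.4 ± 0.657 to 18.5 ± 0.590 FPKM (0.45, adjusted p = 0.00285, limma in both). SERPINB1 also rose in MV3 (0.37, adjusted p = 0.00238) and PANC1 (0.27, adjusted p = 0.0306), the latter lost without siC replicate 1, siC replicate 3, siI1 replicate 1 or siI1 replicate 2 (adjusted p up to 0.102) and -0.46 after rescaling to the same FPKM sum. It read -0.30 in A549 (adjusted p = 0.0602). The change of SERPINB1 differed between the 4 lines (adjusted p = 2.34e-07, limma, moderated F). SERPINB9, which inhibits granzyme B, fell in A549 by 0.60 (adjusted p = 0.0198, limma). That call was lost without any 1 of the siC libraries or without siI1 replicate 2 (adjusted p up to 0.0825). In PANC1 SERPINB9 read 0.47 (adjusted p = 0.0553, limma) on a mean of 49.2 reads per library. SERPINB6 did not pass the test in A549, MV3 or PANC1, with changes of 0.16, 0.08 and 0.20.

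Genes whose level followed each member most closely were ranked by Pearson correlation of log2(FPKM + 0.5), centred within each line, over the lines in which the member averaged at least 1 FPKM. The libraries share their line, group and depth, so these are descriptions. For PLAUR, over 18 libraries of A549, ES2 and MV3, the closest of 9311 genes were ARHGEF2 (r = 0.961), FMNL2 (r = 0.952) and ETV5 (r = 0.946), and PLAT stood at 0.827. PLAT had FMNL2 (r = 0.872), ARHGEF2 (r = 0.871) and FOXD1 (r = 0.852) closest over the same libraries, so FMNL2 and ARHGEF2 came out for both. Closest to PLAU, over all 24 libraries and 8902 genes, were CDT1 (r = 0.826), MTHFD1 (r = 0.824) and DCBLD1 (r = 0.819). Among the genes close to SERPINE2, over the same 18 libraries, were BRI3 (r = 0.855) and LARP1 (r = 0.847), with PLAU at 0.793. For SERPINB2, over the 12 libraries of ES2 and MV3, ABL2 (r = 0.993), NPAS2 (r = 0.992) and ASB1 (r = 0.991) came closest, and PLAUR stood at 0.982. These values include the ES2 libraries whose fall chose SERPINB2, so nothing is read from them.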

How the data were processed

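Libraries were grouped by their labels. The authors clipped reads with cutadapt 1.14, aligned them to hg38 with HISAT2 2.1.0, counted them per gene with featureCounts 1.5.3 and Ensembl annotation and normalized each line with edgeR 3.30.3 (TMM), per the study's methods and the submitters' processing notes. The strand setting of the counting is not given in the sources used here. The deposited tables hold FPKM per library; the unit is not named in them and was worked out from the values, which times gene length were whole multiples of 1 step per library for 100% of values (within 0.01 of a read). Reads per gene were recovered from that step. The tables also hold the authors' own fold changes, p-values and FDR, which were not used.

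FPKM were tested per line as log2(FPKM + 0.5) with limma 3.58.1 in R 4.3.3 (lmFit, eBayes with trend, two-sided), without a block and over genes that averaged 0.5 FPKM or more, and differences between lines with a moderated F test over the interaction contrasts. The step was tested on simulated data in which all genes shared the same fixed spread between replicates. Whether real replicates behave so was not tested, and no call here rests on the simulation. Changes resting on a mean of fewer than 50 reads per library are marked by their reads. The members, gene lists and tests were chosen with earlier results of these data known. The genes named are the members, IGF2BP1, clade B serpins with at least 0.5 FPKM, the 4 largest called changes per line among partner genes with at least 1 FPKM and the 3 genes most correlated with each member. In addition, LRP8, IGF2R, LRPAP1 and the other lines of a named gene were added after their values were seen. A further inhibitor of the system and 1 of the correlated genes are not reported here. Alternatives were other pseudocounts (0.1 and 1), filters, scalings, limma voom, a replicate block and leaving out each library. Replicates of a group differed by more than sampling noise (chi-square per gene 1.54 to 15.1 over 24 pairs). Promoters are from the RefSeq table (GRCh38.p14), where the 4 members looked up were found, and gene positions and 3'UTRs from GENCODE 44 (hg38). Scripts ran in Python 3.11.15 (pandas 2.3.3; scipy 1.17.1).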

Additional observations from a re-analysis of the deposited data

Results flagged for a closer look

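The change after knockdown differed between the 4 lines for PLAUR (adjusted p = 6.27e-06, limma, moderated F) and PLAU (adjusted p = 7.43e-05). On the log2 scale PLAUR changed by 0.60 in A549, by -0.84 in ES2 and by -0.27 in MV3, and read -0.17 in PANC1; it was higher in 3 of 3 siI1 libraries of A549 than in any siC library and lower in 3 of 3 of ES2 and of MV3. PLAU was -1.17 in MV3 and between -0.12 and 0.04 in the other lines. For PLAT the change differed between A549, ES2 and MV3 (adjusted p = 0.00185), at 0.26, -0.48 and -0.05. Such a difference was called for 45.0% of genes over the 4 lines and 27.1% over the 3 lines, and PANC1 was harvested later than the others.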

How the results depend on the processing

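The calls of members in A549, ES2 and MV3 were the same under all 14 alternatives, leaving out each library and the replicate block included. In PANC1, where PLAU was not called, rescaling to the same FPKM sum called 1 member lower (PLAU, -0.87), with siC levels of 58.8 FPKM for PLAU and 0.813 FPKM for PLAUR. That rescaling gave a siC level of 24.1 FPKM for PLAUR in ES2, -2.23 for SERPINB2 in ES2 and 0.041 for PLAU in ES2. Changes that did not pass the test turned sign when 1 library was left out: PLAU ranged from -0.051 to 0.097 in A549, from -0.22 to 0.083 in ES2 and from -0.20 to 0.0021 in PANC1, PLAT from -0.12 to 0.048 in MV3, and SERPINB7 from -0.070 to 0.0017 in MV3. Partner genes called lower were 5 in A549 with limma voom; in ES2 they were 2 with limma voom or a mean of at least 1 FPKM, 0 after rescaling to the same FPKM sum, and 1 to 2 without 1 library. In PANC1, partner genes called lower were 20 after that rescaling, 4 with the median of ratios and 4 to 5 without 1 library, and those called higher were 0 after rescaling and 1 to 4 without 1 library. The rescaling also gave -0.28 for ITGA5, -0.46 for SERPINB1, -0.54 for SERPINB6 and -0.12 for SERPINB9 in PANC1. The difference between lines of SERPINE2 passed with Cochran's Q (adjusted p = 0.00141), and the differences of PLAU, PLAUR and PLAT passed in each of 8 alternatives (adjusted p up to 0.0133, 0.00495 and 0.0449). The causes of these shifts were not tested. Libraries of siC and siI1 with the same replicate number showed no shared deviation (correlations of deviations -0.06 to 0.07 in 12 pairs). The labels do not say whether replicates were paired. With the replicate block, 4 partner genes were lower and 1 higher in PANC1, and no call of a member changed. All calls fell from 1441 to 622 lower and from 1092 to 379 higher in A549. In ES2 they fell from 2201 to 1443 lower and from 1772 to 1169 higher. The block also ended calls of other genes: its adjusted p was 0.0679 for the change of SERPINB9 in A549, 0.0889 for the change of SERPINB8 in ES2, 0.0598 for the change of SERPINB8 in MV3, 0.0704 for the change of SERPINB1 in PANC1, 0.0918 for the change of ITGA5 in A549, 0.130 for the change of ITGA3 in ES2, 0.0573 for the change of MRC2 in MV3 and 0.0693 for the change of TFPI in MV3. In A549, leaving out 1 library left 752 to 993 genes lower and 502 to 726 higher, and limma voom called 2339 lower and 1837 higher. SERPINB2 in A549 and SERPINB2, PLAT and SERPINE2 in PANC1 averaged under the filter of 0.5 FPKM and were left untested.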
